A study of Mus musculus with 27 samples.

Results

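Glutathione transferases join the tripeptide glutathione to reactive or foreign molecules, which makes the products more soluble and ready for export. The cytosolic enzymes fall into classes named by Greek letters, the kappa enzyme sits in mitochondria and peroxisomes, and the microsomal enzymes belong to a separate family of membrane proteins known as MAPEG. In adipose tissue the family is best known for the alpha-class enzyme Gsta4, which removes 4-hydroxynonenal, a reactive aldehyde formed when membrane lipids are oxidized, and for the kappa enzyme Gstk1, which helps assemble the hormone adiponectin. The enzymes chosen by gene symbol were followed here as 9 of the 18193 genes that the arrays measured: Gsta4 (alpha), Gstm2 (mu), Gstt1 and Gstt2 (theta), Gstz1 (zeta), Gsto1 (omega), Gstk1 (kappa), and the microsomal Mgst1 and Mgst3.

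The samples were epididymal adipose tissue (EAT), the fat depot beside the testis and epididymis, from 27 male C57BL/6J mice, an inbred laboratory strain, with 1 array per mouse. The mice were 5 weeks old on arrival, ate a standard diet for 1 week and then one of 3 diets for 18 weeks, with 9 mice in each group. The control diet was AIN93G, a purified rodent diet. The Western diet was rich in fat from butter, cholesterol and sucrose, and the third group ate the same Western diet with 0.05% quercetin, a plant flavonol. No mice ate the control diet with quercetin, so the flavonol was only compared on the Western diet. Mice shared cages by 3, and cage numbers were not given, so mice of one cage were treated as separate samples.

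Every value below is the log2 of the array signal after quantile normalization, and 1 unit is a doubling. A gene was called when limma's adjusted p was under 0.05. The signal of different genes depends on their probes, so levels were compared between mice and never between genes. Adipocyte markers averaged 12.2 to 12.7 on all 27 arrays, although a protocol text in the labels speaks of liver RNA. Markers of other tissues were high on some arrays: testis markers reached 12.7 on control replicate 6, smooth muscle markers reached 11.502 and 12.032 on control replicates 2 and 4, and liver markers ranged from 3.69 to 11.48, with 9 arrays more than 2 units above their median of 5.50. Whole fat pads were measured, so fewer cells of a type and less RNA per cell cannot be told apart. No 2 arrays were identical, and their median deposited signals ranged from 25.2 to 54.4.

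The first question was what the Western diet did to the enzymes. In the family, 3 fell and 1 rose: Gsta4, Gstt1 and Mgst3 were lower and Gsto1 was higher in mice fed the Western diet than in mice fed the control diet, and 5 were not called. Of all genes, 11.3% were called higher and 6.44% lower in this comparison. The median log2 fold change of the 9 enzymes was -0.03, and that of all genes was -1.8e-05.

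Gsta4 changed most. In mice fed the control diet its signal was 8.43 at the lowest, 8.95 at the median and 10.14 at the highest. In mice fed the Western diet the lowest, median and highest values were 6.25, 6.82 and 7.90. All 9 mice fed the Western diet were below all 9 mice fed the control diet, a separation that 0.346% of all genes showed in this direction. The mean fell from 9.06 ± 0.55 to 6.92 ± 0.50 (SD, n = 9 each), a log2 fold change of -2.14 (95% interval -2.76 to -1.52, limma adjusted p = 3.5e-05), or 4.41-fold lower. The call held in all 43 alternative analyses, with values from -2.56 to -1.88 and adjusted p from 2.3e-06 to 0.0012. It was -1.88 (adjusted p = 0.00068) without the 9 arrays high in testis, lymph node or smooth muscle markers, and -2.56 (adjusted p = 0.00095) without the 9 arrays high in liver markers.

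**Figure D1:**
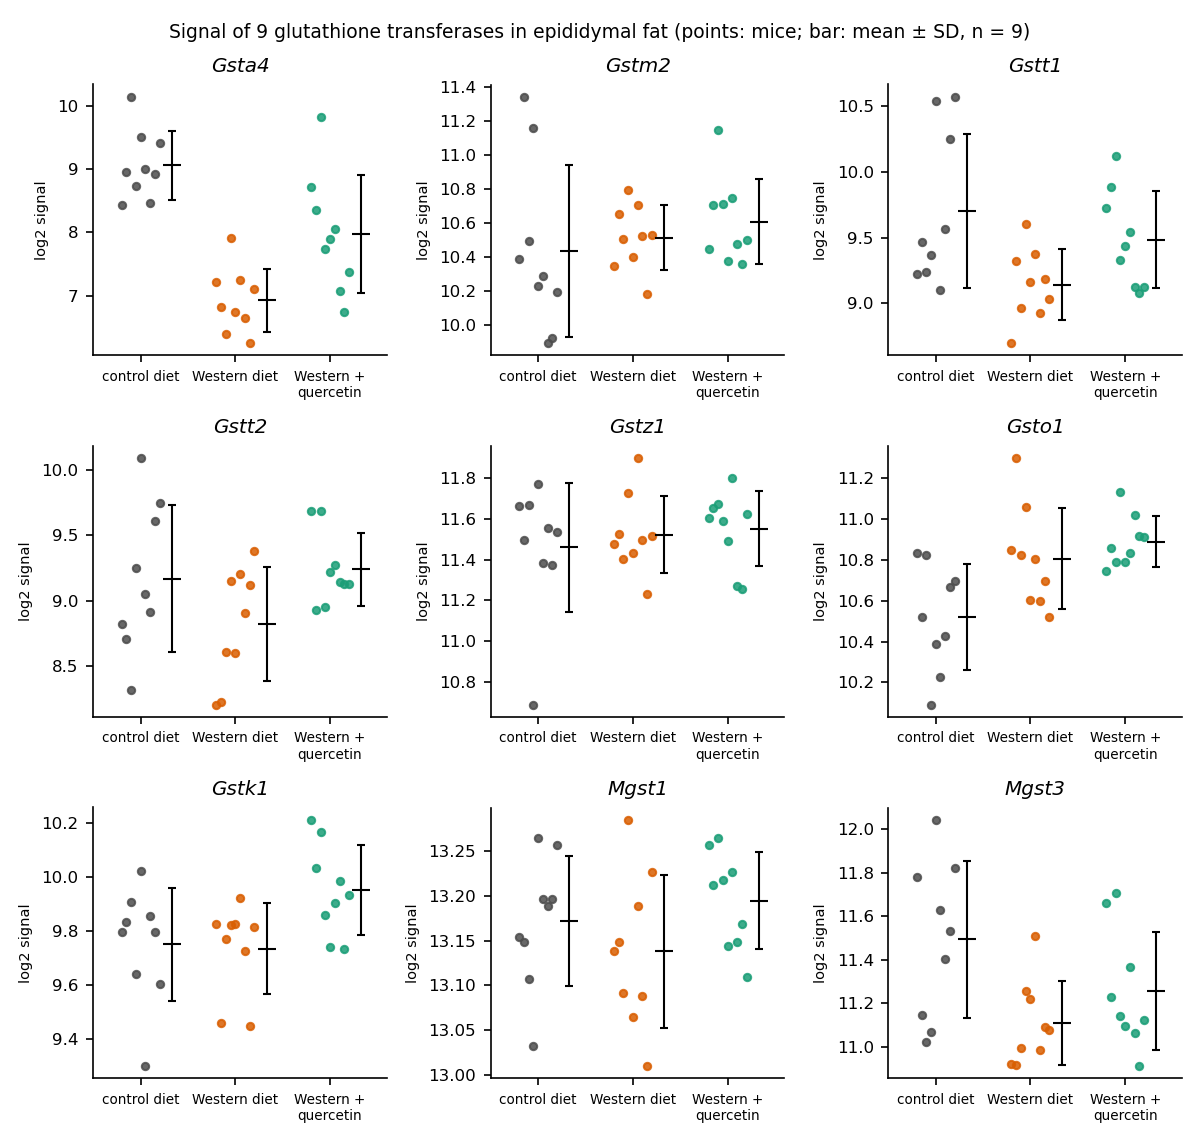
Log2 signal of each of the 9 enzymes (vertical axes, 1 panel per gene, each with its own range) in every mouse by diet. Points are single mice and bars are the mean ± SD of 9 mice. The Western diet points of Gsta4 lie between 6.25 and 7.90, all below the lowest control mouse at 8.43, whereas the groups overlap for the other 8 enzymes.

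Gstt1, a theta-class enzyme known for acting on small halogenated molecules, had lowest, median and highest signals of 9.10, 9.46 and 10.57 on the control diet and 8.70, 9.16 and 9.60 on the Western diet. Control replicates 5, 8 and 9 stood above all Western diet mice, and 4 Western diet mice were below all control mice. The log2 fold change was -0.56 (95% interval -0.95 to -0.17, limma adjusted p = 0.04). The call was near the threshold: it was lost, with adjusted p from 0.054 to 0.091, when any 1 of 9 mice was left out (control replicates 5, 8 and 9, Western replicates 1, 3, 5, 7, 8 and 9), where the log2 fold change ran from -0.57 to -0.45. Another 8 alternatives ended it, at adjusted p from 0.053 without normalization to 0.14 with a median shift.

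Mgst3, a microsomal enzyme with glutathione peroxidase activity, ranged from 11.02 through a median of 11.53 to 12.04 on the control diet and from 10.92 through 11.08 to 11.51 on the Western diet. All 9 Western diet mice were below the control median, yet the groups overlapped, with control replicates 2, 3, 4 and 7 at 11.02 to 11.40 and Western replicate 6 at 11.51. The log2 fold change was -0.39 (95% interval -0.65 to -0.12, limma adjusted p = 0.035), and the call was lost, with adjusted p from 0.051 to 0.079 and log2 fold changes from -0.38 to -0.32, on leaving out any 1 of 9 mice (control replicates 1, 5, 8 and 9, Western replicates 1, 2, 3, 7 and 8). A second, dimmer probe set of Mgst3 gave 0.14 (adjusted p = 0.7), and the mean of both gave -0.12 (adjusted p = 0.58), so the fall rests on the brighter probe set. In all, 6 alternatives other than leaving out single mice ended the call, that mean among them, at adjusted p from 0.05 to 0.58.

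Gsto1, an omega-class enzyme that acts as a thiol transferase and removes glutathione from proteins, was the only one of the 9 called higher. Its lowest, median and highest signals were 10.09, 10.52 and 10.83 on the control diet and 10.52, 10.81 and 11.30 on the Western diet. All 9 Western diet mice exceeded the control median, and 3 exceeded every control mouse. The log2 fold change was 0.29 (95% interval 0.08 to 0.49, limma adjusted p = 0.046), and a second probe set of Gsto1 gave 0.49 (adjusted p = 0.0057). This call was the least firm, since 18 of the 27 mice each ended it when left out (control replicates 2, 4, 5, 6 and 7, Western replicates 1, 2, 3, 4, 6 and 8, and quercetin replicates 1, 2, 5, 6, 7, 8 and 9), with adjusted p from 0.05 to 0.1 and log2 fold changes from 0.22 to 0.30. A quercetin mouse enters this test only through the estimate of spread that the diets share. Another 11 alternatives ended the call of Gsto1, at adjusted p from 0.054 to 0.24. Without the 9 arrays high in liver markers, chosen after seeing the data, Gstt1 was at -0.73 (adjusted p = 0.073), Mgst3 at -0.50 (adjusted p = 0.051) and Gsto1 at 0.25 (adjusted p = 0.24), so that of the 4 calls Gsta4 alone was kept.

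The enzymes not called on the Western diet were Gstm2, Gstt2, Gstz1, Gstk1 and Mgst1. Gstt2, the theta-class neighbour of Gstt1, gave -0.35 (95% interval -0.75 to 0.05), a range that still allows a fall as deep as that of Gstt1. Gstz1, the maleylacetoacetate isomerase of tyrosine breakdown, gave 0.06 (-0.16 to 0.29), and Gstk1 gave -0.02 (-0.19 to 0.16). Mgst1, a microsomal enzyme that responds to thiol-reactive agents, had the narrowest interval, -0.13 to 0.06. The signs of Gstz1, Gstk1 and Mgst1 turned under some alternatives, so no direction can be read for them.

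Gstm2, a mu-class enzyme abundant in muscle, was not called with all mice, and its call depended on 2 arrays. Its control values were 9.89 at the lowest, 10.29 at the median and 11.34 at the highest, and those on the Western diet were 10.18, 10.52 and 10.79. Of the Western diet mice, 8 lay above the control median, but control replicates 2 and 4 held the 2 highest control values, 11.34 and 11.16, on the arrays where smooth muscle markers were highest. With all mice the log2 fold change was 0.08 (95% interval -0.23 to 0.39, limma adjusted p = 0.77). Without those 2 mice, an analysis chosen after seeing the data, it was 0.31 (adjusted p = 0.048), and in mice fed quercetin against the control diet it went from 0.17 (adjusted p = 0.56) to 0.41 (adjusted p = 0.031). A planned analysis left out the 9 arrays high in testis, lymph node or smooth muscle markers, those 2 among them. It gave 0.41 on the Western diet (limma adjusted p = 0.019) and 0.47 with quercetin against the control diet (adjusted p = 0.024). Whether smooth muscle RNA raised Gstm2 on control replicates 2 and 4 was not tested.

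**Figure D2:**
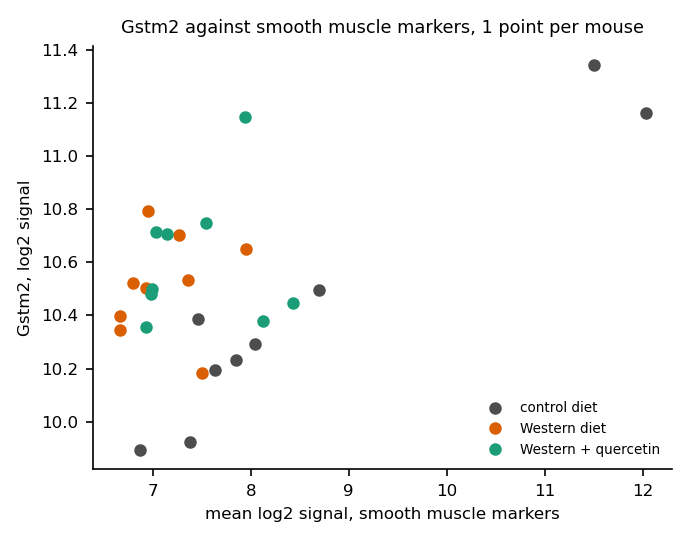
Log2 signal of Gstm2 (vertical axis) against the mean log2 signal of 7 smooth muscle markers (horizontal axis), 1 point per mouse, coloured by diet. Control replicates 2 and 4 stand alone at the right, with marker means of 11.502 and 12.032 and Gstm2 at 11.34 and 11.16.

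The second question was whether quercetin altered the enzymes in mice fed the Western diet. None of the 9 was called by limma. There were 3 of 9 with an unadjusted p under 0.05 (Gsta4, Gstt2 and Gstk1), as had 13.7% of all genes. After adjustment, 0.253% of all genes were called higher and 0.0770% lower. All 9 log2 fold changes were above 0, as were 53.5% of those of all genes. The signs of Gstm2, Gstz1, Gsto1 and Mgst1 turned when arrays were aligned by their medians alone. Second probe sets gave -0.21 for Gsto1 (limma adjusted p = 0.49), -0.75 for Mgst1 (adjusted p = 0.66) and 0.26 for Mgst3 (adjusted p = 0.63). That of Mgst1 was dim, with a mean of 1.87. The median of the 9 was 0.15 and that of all genes 0.02.

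Gsta4 again stood out in size. In mice fed quercetin its lowest, median and highest values were 6.74, 7.89 and 9.83. Of these mice, 4 were above every Western diet mouse, while the other 5 overlapped with them. The log2 fold change of 1.05 (95% interval 0.43 to 1.67) had a p of 0.0017 by limma and an adjusted p of 0.11. It passed the threshold in 4 of 43 alternatives: with array weights (0.98, adjusted p = 0.022), with the methods' test with or without Benjamini-Hochberg adjustment (Tukey-adjusted p = 0.0094), and without quercetin replicate 8 (1.20, adjusted p = 0.046). Without the arrays high in testis, lymph node or smooth muscle markers it was 0.60 (adjusted p = 0.42).

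Gstt2 was 8.93 at the lowest, 9.14 at the median and 9.69 at the highest in mice fed quercetin, and all 9 were above the Western diet median of 8.91. Its log2 fold change was 0.42 (95% interval 0.02 to 0.82, limma adjusted p = 0.34). Gstk1 was 9.73, 9.93 and 10.21 in mice fed quercetin against 9.45, 9.81 and 9.92 on the Western diet, and 5 quercetin mice were above every Western diet mouse. Its log2 fold change of 0.22 (0.04 to 0.39) had an adjusted p of 0.23. These intervals exclude 0, but the differences did not hold after adjustment over 18193 genes, and a p that misses the threshold does not show that the levels were alike. The remaining intervals of this comparison ran from -0.05 to 0.73 for Gstt1, -0.22 to 0.41 for Gstm2, -0.19 to 0.25 for Gstz1, -0.12 to 0.29 for Gsto1, -0.04 to 0.15 for Mgst1 and -0.11 to 0.41 for Mgst3.

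Against the control diet, mice fed quercetin had lower Gsta4 and higher Gsto1, and the other 7 enzymes were not called. The calls differed without the 9 arrays high in testis, lymph node or smooth muscle markers. There Mgst3 was called lower, at -0.55 (limma adjusted p = 0.016) in place of -0.24 (adjusted p = 0.28). Gstm2 was called higher, at 0.47 (adjusted p = 0.024), and Gsta4 stayed lower, at -1.28 (adjusted p = 0.024). Gsto1 lost its call there, at 0.37 (adjusted p = 0.081). With all mice, 5.00% of all genes were called higher and 1.65% lower. This comparison shares its groups with the other 2 and is not separate evidence. Gsta4 differed by -1.09 (95% interval -1.71 to -0.47, limma adjusted p = 0.029), with 7 quercetin mice below every control mouse. That call was lost, at adjusted p from 0.052 to 0.067 and log2 fold changes from -1.06 to -0.94, when control replicate 5 or 9 or quercetin replicate 4, 7, 8 or 9 was left out. It was also lost without normalization (adjusted p = 0.087), with a median shift (0.053), with only the 2 diets in the fit (0.077) and without the arrays high in liver markers (0.14). Gsto1 differed by 0.37 (0.16 to 0.57, adjusted p = 0.026), with all 9 quercetin mice above the control median, and lost its call at adjusted p from 0.054 to 0.059 and log2 fold changes from 0.32 to 0.35 without control replicate 4 or quercetin replicate 4 or 7. The second probe set of Gsto1 gave 0.28 here (adjusted p = 0.17), and the mean of both gave 0.32 (adjusted p = 0.061). In all, 6 other alternatives ended the call, the one above among them, at adjusted p from 0.055 to 0.14. In limma's F test over the 3 diets, Gsta4 (adjusted p = 0.00011) and Gsto1 (0.023) were called, against 16% of all genes.

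**Figure D3:**
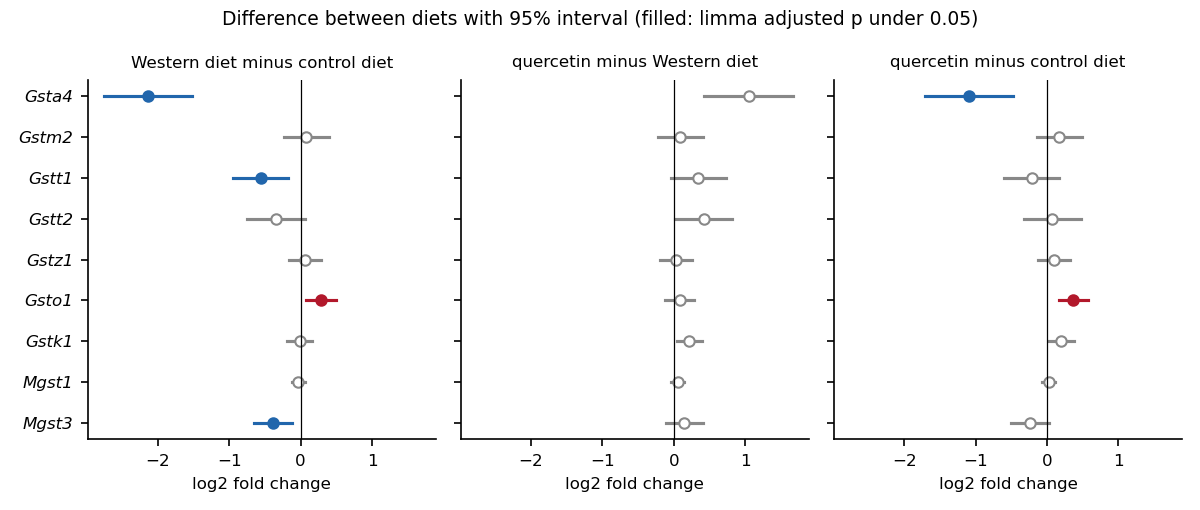
Log2 fold change (horizontal axes) of each enzyme in the 3 comparisons between diets, with 95% intervals from limma. Filled points were called, blue for lower and red for higher. Gsta4 lies at -2.14, 1.05 and -1.09, farther from 0 in each comparison than the other 8.

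The 3 diets also differed in other features of the RNA, given here beside the enzymes. The mean over 12 macrophage markers went from 8.19 ± 0.50 (SD, n = 9) in control mice to 9.92 ± 0.52 in Western diet mice and was 9.08 ± 0.68 in quercetin mice, while the adipocyte mean was 12.54, 12.49 and 12.54. Fibroblast markers averaged 10.27, 10.80 and 10.62, and mesothelium markers 5.94, 4.49 and 4.16. The actin 3' to 5' log2 ratio of the control probe sets, a measure of RNA integrity, averaged 1.11, 0.79 and 1.14 in the same order. The part of each of these in the differences between diets was not tested.

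Within a diet, mice with more macrophage transcript had less of several enzymes. The relation was computed for all 9 enzymes in each diet, 27 relations in all, chosen after the values were seen, with exact two-sided permutation tests. With quercetin, Gsta4 fell as the macrophage mean rose (Pearson r = -0.957, exact permutation p = 8e-05, adjusted p = 0.0011, Spearman rho = -0.967, exact permutation p = 0.00017, adjusted p = 0.0022, n = 9). Gstt1 did the same there (r = -0.973, exact permutation p = 3e-05, adjusted p = 0.00082, rho = -0.983, p = 5e-05, adjusted p = 0.0013). Both relations remained without the 2 mice farthest from the median macrophage value, at r = -0.92 (exact permutation p = 0.0058) for Gsta4 and r = -0.944 (p = 0.0026) for Gstt1. With quercetin, the macrophage mean was 7.91 to 8.71 in replicates 1 to 3 and 8.88 to 9.17 in replicates 4 to 6. It was 9.75 to 9.93 in replicates 7 to 9. Gsta4 and Gstt1 fell over these runs of replicates without overlap, also without those 2 mice. If the mice of a run shared a cage, they were not independent, and the permutation p with quercetin would be too small. The cages are not known.

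Other relations were weaker. With quercetin, Mgst1 gave r = -0.827 (exact permutation p = 0.0073, adjusted p = 0.022; rho = -0.75, p = 0.025, adjusted p = 0.076) and -0.816 without the 2 farthest mice (exact permutation p = 0.028). For Mgst3 (r = -0.824, exact permutation p = 0.0058, adjusted p = 0.02, rho = -0.933, p = 0.00075, adjusted p = 0.0067) and Gstm2 (r = -0.785, exact permutation p = 0.011, adjusted p = 0.029, rho = -0.667, p = 0.059, adjusted p = 0.11) the relation rested on those 2 mice, since r went to -0.605 (p = 0.13) and -0.463 (p = 0.29). On the Western diet all 9 enzymes had a negative r, and 5 passed the adjusted threshold (Gsta4, Gstm2, Gstt1, Gstz1 and Mgst1, r from -0.854 to -0.812, each with an adjusted exact permutation p of 0.02), but none of the 5 passed without the 2 farthest mice, where r was -0.484 for Gsta4, -0.671 for Gstm2, -0.527 for Gstt1, -0.613 for Gstz1 and -0.669 for Mgst1 over 7 mice (exact permutation p from 0.1 to 0.26). For Gstt1 Spearman's rho of -0.667 missed the threshold (adjusted exact permutation p = 0.11). On the control diet no relation passed, and Gsta4 had r = 0.368 (exact permutation p = 0.33, adjusted p = 0.41; rho = 0.133, p = 0.74). The difference in r between diets was not tested. No such relation was computed for other genes. The counts of enzymes, here and for single mice below, therefore do not set them apart from genes in general.

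The values of single mice show the same relations again and are not separate evidence. Quercetin replicate 8, with the highest macrophage mean of its group at 9.93, had the lowest value of 6 of the 9 enzymes, and quercetin replicate 3, with the lowest macrophage mean at 7.91, had the highest value of 5. On the Western diet, replicate 8 had the highest macrophage mean, 10.40, and the lowest value of 5 enzymes, and replicate 4 had the lowest macrophage mean, 9.0, and the highest value of 4. Western replicates 4 and 6, the 2 farthest from the Western median of the macrophage markers, also had the highest liver marker means, 11.48 and 10.55, and replicate 6 had the highest Gstz1, Gstk1 and Mgst3 of its group. With quercetin Gsto1 alone of the 9 had a positive r, 0.475 (exact permutation p = 0.2, adjusted p = 0.28).

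**Figure D4:**
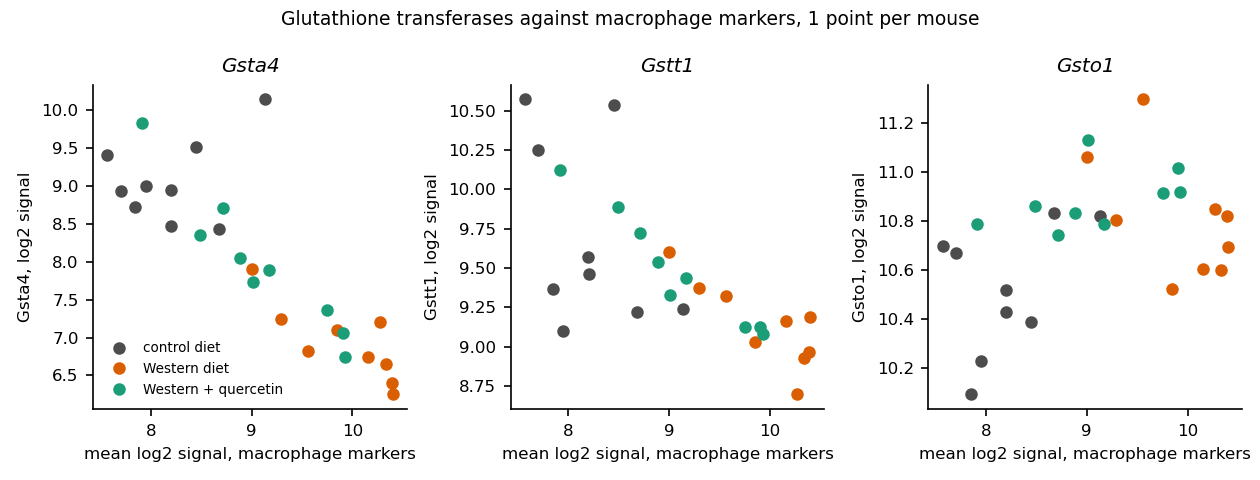
Log2 signal of Gsta4, Gstt1 and Gsto1 (vertical axes) against the mean log2 signal of 12 macrophage markers (horizontal axes), 1 point per mouse, coloured by diet. With quercetin the points of Gsta4 (r = -0.957) and Gstt1 (r = -0.973) fall along a descending line, and those of Gsto1 (r = 0.475) do not.

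Across all 27 mice, after the mean of each diet was subtracted, 27 of the 36 pairs of enzymes had a positive correlation, with a median r of 0.34. These are descriptions, since the genes of a mouse share its array and its tissue composition. Gstt2 and Mgst3 were most alike (r = 0.69), followed by Gstt1 and Gstt2 (r = 0.68), which lie on chromosome 10 with Gstt4 between them. Gsto1 had r = -0.39 against Gstt2 and 0.09 against Gstt1, and Gstm2 had r under 0.35 with every other enzyme.

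**Figure D5:**
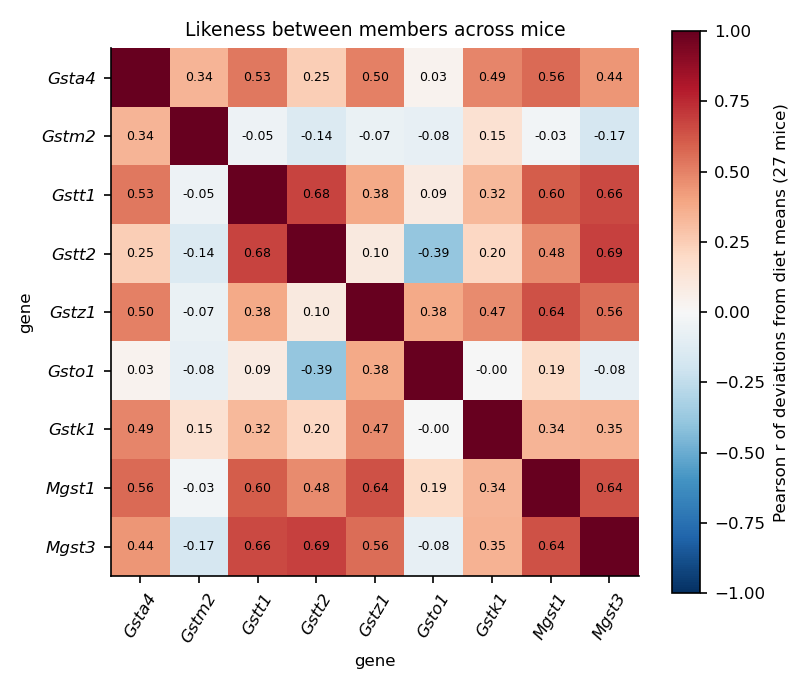
Pearson r between each pair of the 9 enzymes over 27 mice, computed on deviations from the mean of the mouse's diet, with red for positive and blue for negative values. Gstt1, Gstt2 and Mgst3 form a block of 0.66 to 0.69, and the row of Gsto1 is near 0 or negative except against Gstz1 (0.38) and Mgst1 (0.19).

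The genes whose deviations were most like those of each enzyme were sought among the 9095 other genes above the median level. For Gsta4 they were Immt, which shapes the inner mitochondrial membrane (r = 0.81), Rnf181 (0.79) and Ndufa9, a subunit of respiratory complex I (0.78). For Gstt1 they were Scn7a (0.94), the mitochondrial aldehyde dehydrogenase Aldh2 (0.91) and Ivd, an enzyme of leucine breakdown (0.90). Mgst3 was most like Agt, the precursor of angiotensin (0.88), Atg7 (0.84) and C2 (0.83), and Gsto1 was most like Caml (0.83), Lgalsl (0.80) and Rtn4 (0.80). The closest to Gstm2 was Tm7sf2 (0.89), to Gstt2 Per3 (0.86), to Gstz1 Myl1 (0.89), to Gstk1 Dnlz (0.86) and to Mgst1 Abcd2 (0.86).

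Promoter sequence, the 250 bases before an annotated transcript start, was on hand in RefSeq (GRCm38.p6) for 7 of the 9 enzymes, without Gsta4 and Gstt2. The motifs searched on both strands were the core of the antioxidant response element, TGACNNNGC, bound by the stress regulator Nrf2, and the GC box, GGGCGG. These 7 had 9 promoter entries. The core was in 1 of the 9, an entry of Mgst1, and in 10.2% of all 32851 entries. The GC box was in 6 of the 9, from 5 of the 7 enzymes, and in 32.7% of all entries. The entry of Gstt1 began at a transcript start inside the gene's annotated span, not at its outermost start, so it is not shown. The sequences of Mgst3 and Gsto1, called on the Western diet, and of the first of the 2 annotated starts of Mgst1, the enzyme with the core, are given 5' to 3' on the gene's strand, with matches in capitals: Mgst3 at chr1:167393842-167394091 (minus strand), Gsto1 at chr19:47854723-47854972 (plus) and Mgst1 at chr6:138140277-138140526 (plus).
Mgst3: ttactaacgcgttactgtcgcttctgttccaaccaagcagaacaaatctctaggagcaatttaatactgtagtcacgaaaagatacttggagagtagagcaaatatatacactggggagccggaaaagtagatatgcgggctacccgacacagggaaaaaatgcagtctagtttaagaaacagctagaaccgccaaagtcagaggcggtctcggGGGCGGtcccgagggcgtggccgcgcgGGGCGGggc
Gsto1: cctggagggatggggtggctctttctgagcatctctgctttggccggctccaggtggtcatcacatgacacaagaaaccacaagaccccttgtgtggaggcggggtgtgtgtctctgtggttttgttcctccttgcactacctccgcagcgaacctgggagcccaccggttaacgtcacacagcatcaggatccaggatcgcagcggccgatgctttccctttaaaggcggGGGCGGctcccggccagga
Mgst1: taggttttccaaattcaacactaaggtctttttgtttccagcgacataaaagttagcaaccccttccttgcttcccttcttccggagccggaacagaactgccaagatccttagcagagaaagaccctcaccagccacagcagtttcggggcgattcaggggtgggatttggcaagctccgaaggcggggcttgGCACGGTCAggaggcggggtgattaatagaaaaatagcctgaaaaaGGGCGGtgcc
Mgst3, which was called lower, held 2 GC boxes, and Gsto1, which was higher, held 1. Mgst1 held the core, read on the opposite strand, and 1 GC box. These matches describe the letters of the windows and not binding.

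Among 15 other cytosolic glutathione transferases measured, the Western diet gave 2 called higher, 3 lower and 10 not called, beside 11.3% higher and 6.44% lower among all genes. Hpgds, the sigma-class enzyme that makes prostaglandin D2 in immune cells, rose by 2.61 (limma adjusted p = 2.3e-05), and Gstm3 rose by 1.00 (adjusted p = 0.006). Gsta3, which belongs to the same class as Gsta4, fell by 0.87 (adjusted p = 0.03). With quercetin against the control diet, 2 of the 15 were higher and 1, Gstt3, was lower (-0.80, adjusted p = 0.014), beside 5.00% and 1.65% of all genes.

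All 4 of the other MAPEG family members were called on the Western diet, 3 higher and 1 lower, beside 11.3% and 6.44% of all genes. Alox5ap, which hands arachidonic acid to 5-lipoxygenase, and Ltc4s, the leukotriene C4 synthase, rose by 1.38 (limma adjusted p = 2.8e-05) and 0.62 (adjusted p = 8.3e-05), and Mgst2 was the third that rose. Ptges, an inducible prostaglandin E synthase, fell by 2.08 (adjusted p = 0.00019). With quercetin against the control diet the same counts held, 3 higher and 1 lower, beside 5.00% and 1.65% of all genes. Mgst2 was higher there by 0.84 (adjusted p = 0.0063).

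The supply of glutathione itself gave no call. None of 7 genes of glutathione synthesis was called by limma in any comparison, and at an unadjusted p under 0.05 there were 0 on the Western diet, 0 between quercetin and the Western diet and 1 between quercetin and the control diet. On the Western diet the smallest p of that list belonged to Gclc, the catalytic subunit of the first step (log2 fold change -0.21, adjusted p = 0.41), and with quercetin it belonged to Gss, the second step, at -0.22 against the Western diet (adjusted p = 0.41) and -0.26 against the control diet (adjusted p = 0.17). Of 10 genes of glutathione reduction and peroxidases, the Western diet raised 2 and lowered 2, beside 11.3% and 6.44% of all genes. Gpx3, the secreted peroxidase, fell by 1.26 (adjusted p = 0.00033), whereas the glutaredoxin Glrx and Gpx7 rose by 0.79 (adjusted p = 0.0055) and 0.64 (adjusted p = 0.00022).

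The shares to set beside the next counts are again 11.3% higher and 6.44% lower among all genes. Of 17 genes of conjugate export and breakdown, mice fed the Western diet had 5 higher and 1 lower, among them Anpep, an aminopeptidase also found on myeloid cells (1.90, limma adjusted p = 0.00081), Ggt6 (1.05, adjusted p = 0.0044) and Chac1, which degrades glutathione (0.69, adjusted p = 0.014). Of 19 genes of reactive aldehyde clearance, 3 were higher and 2 lower, counts near those shares, and the largest changes were Akr1b8 at 0.76 (adjusted p = 0.00012), Aldh2 at -0.51 (adjusted p = 0.0075) and Aldh9a1 at 0.36 (adjusted p = 0.0032). Of 12 genes of Nrf2 and its known targets, Hmox1, heme oxygenase, rose by 1.46 (adjusted p = 0.00084) and Srxn1, sulfiredoxin, rose by 0.48 (adjusted p = 0.00088), and the other 10 were not called.

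The partners of single enzymes were few. Of all genes, 11.3% were called higher and 6.44% lower on the Western diet. With quercetin against the control diet these shares were 5.00% and 1.65%. Of 4 tyrosine breakdown genes beside Gstz1, none was called by limma on the Western diet (0 at an unadjusted p under 0.05), and Fah, which takes the product onward, was higher with quercetin than on the control diet (0.41, limma adjusted p = 0.025). Of 5 genes of adiponectin assembly, the pathway of Gstk1, the protein disulfide isomerases Pdia6 and P4hb were higher on the Western diet (0.33, adjusted p = 0.005, and 0.26, adjusted p = 0.012). Of 5 genes of NADPH supply, Pgd rose on the Western diet (0.27, adjusted p = 0.022), and Pgd and Me1 were higher with quercetin than on the control diet (0.44, adjusted p = 0.0019, and 0.47, adjusted p = 0.024). None of the 95 genes on these other lists was called by limma between quercetin and the Western diet. Of all genes, 0.253% were called higher and 0.0770% lower in that comparison. An unadjusted p under 0.05 was found for 23 of the 95, beside 13.7% of all genes. The lowest adjusted p of the 95 were 0.059 for Hpgds (-1.47) and 0.069 for P4hb (-0.28).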

How the data were processed

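EAT RNA of 27 mice was hybridised to Affymetrix mouse expression arrays, 1 per mouse. The authors made the deposited intensity values with Microarray Suite 5.0 and GeneSpring, and no scanner files were used here. The values were on a linear scale with 45101 probe sets per array. The 64 control probe sets were set aside, the rest were quantile-normalized between arrays and given a floor of 1 before log2. Probe sets were named from GEO's platform annotation with gene IDs checked against RefSeq (0 symbols needed an update), the 932 annotated to several genes were left out, and the brightest probe set stood for each of 18193 genes. Mean differences were tested with limma 3.58.1 in R 4.3.3 (lmFit and eBayes with a trend, all 27 arrays in 1 fit), with p-values adjusted by Benjamini-Hochberg across the 18193 genes and 95% intervals unadjusted. The scripts were tested on simulated data. Groups came from the labels, and the number of arrays, 9 per diet, limits the precision.

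The methods' test was Welch's analysis of variance with Tukey's test, run as an alternative. Other alternatives changed the normalization, floor, pseudocount, probe sets, trend, weights, block and arrays. The members and lists were chosen with earlier results of these data known. All 9 members were named, and from each other list up to 3 called genes per comparison with the largest change, or the gene with the smallest p where none was called, and the 3 genes most like each member. No pairing of mice by replicate number was seen.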

Additional observations from a re-analysis of the deposited data

Results flagged for a closer look

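In 27 groups of 9 mice (9 enzymes in 3 diets), 2 single values stood apart from the rest of their group by Dixon's criterion, and chance alone marks about 1 in 20 groups. Gstm2 on quercetin replicate 3 was 11.15 against 10.75 for the next mouse, a gap of 0.503 of the group's range. That array also had the highest epididymis marker mean of its group, 5.48, and the lowest macrophage mean, 7.91. Gstz1 on control replicate 4 was 10.69 against 11.37 for the next mouse, a gap of 0.632 of the range. That array had the highest smooth muscle marker mean of all 27, 12.03, and the lowest adipocyte mean, 12.16. Their part in the 2 values was not tested.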

How the results depend on the processing

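The count of called enzymes on the Western diet, 4 with the chosen settings, was 1 without normalization, 2 with a median shift, 2 with a floor of 32, 2 without the trend, 1 with only the 2 diets in the fit, 1 by the methods' test with adjustment and 1 without the arrays high in liver markers, and ran from 1 to 4 when single mice were left out. Between quercetin and the Western diet it was 0, but 1 with array weights, 1 by the methods' test with adjustment and 2 without, and from 0 to 1 with single mice left out. Between quercetin and the control diet it was 2, but 0 without normalization, 0 with a median shift, 1 with the mean of all probe sets, 1 with only the 2 diets, 1 by the adjusted methods' test and 0 without the arrays high in liver markers, and from 0 to 2 with single mice left out. In that comparison it was 3 without the arrays with other tissue markers. Over the 3 diets together it was 2, but 1 without normalization, 4 with array weights, 1 and 5 by the methods' test with and without adjustment, 1 without the arrays high in liver markers, and 2 to 3 with single mice left out. With a replicate block the Western diet count was 2. No pairing of mice by replicate number was seen. Over 27 same-numbered pairs of arrays the median r was 0.0062, with 10 over 0.1, and over pairs of other numbers it was -0.009. Shared cages or batches were not tested, nor were the causes of the changed counts. Over the 18193 genes, calls ranged from 1572 to 4130, from 0 to 1408 and from 200 to 2261 in the 3 comparisons, against 3219, 60 and 1211. Omitting only the 2 smooth muscle arrays, or the arrays high in liver markers, was chosen after seeing the data. These signs turned, all of values not called with the chosen settings. On the Western diet, Gstk1 was 0.00034 without normalization, 0.11 with a median shift and from -0.072 to 0.0201 with single mice left out. Mgst1 was 0.054 with a median shift and 0.0084 with the mean of all probe sets. Gstz1 was -0.019 with array weights, -0.033 to 0.10 with single mice left out, -0.065 without the arrays with other tissue markers, -0.042 without the 2 smooth muscle arrays and -0.11 without the liver arrays. Between quercetin and the Western diet, Gstm2 was -0.0032 with a median shift. Gstz1 was -0.0498 with a median shift and -0.0079 to 0.076 with single mice left out. Gsto1 was -0.016 with a median shift and -0.065 with the mean of all probe sets. Mgst1 was -0.017 with a median shift and -0.35 with the mean of all probe sets. Between quercetin and the control diet, Mgst1 was -0.34 with the mean of all probe sets, -0.021 without the arrays with other tissue markers and -0.00086 without the 2 smooth muscle arrays. Mgst3, at -0.24, was 0.079 with the mean of all probe sets. Gstt2 was -0.035 to 0.19 with single mice left out and -0.27 without the arrays with other tissue markers. Gstz1 was -0.0047 to 0.13 with single mice left out, -0.059 without the arrays with other tissue markers and -0.013 without the 2 smooth muscle arrays.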
